A study of Mus musculus with 17 samples.

Results

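The genes of 6 chemokines and 2 inflammatory cytokines of myeloid cells were followed across 17 exon arrays of 32D cells, a mouse myeloblast-like line that grows in interleukin-3 (IL-3). They were Ccl3, Ccl4, Ccl5, Ccl6, Ccl9, Cxcl2, Tnf and Il1b, chosen by symbol with earlier results of these data known, and all 8 had a value among the 20227 genes measured. The receptor tyrosine kinase FLT3 acts in early blood cells, and internal tandem duplications (ITD) of its gene activate it in acute myeloid leukaemia. The groups were parental cells without any transgene (2 arrays), cells with the empty retroviral vector pLXRN (2), cells with human wild-type FLT3 in that vector (2), the wild-type cells with FLT3 ligand at 20 ng/mL (2), and 9 lines that each carried a different human FLT3/ITD mutant (9 arrays, 1 for each line, numbered 1 to 9 here). Parental, vector and wild-type cells were given murine IL-3 at 1 ng/mL and the ITD lines none, so the mutant receptor and the absence of IL-3 cannot be told apart. Whether IL-3 remained in the cultures with ligand is not given in the sources used here, and its label leaves room for a line that carried a ligand construct. All transduced lines were polyclonal, and the 2 arrays of a control group are labelled biological replicates. The design text counts 2 lines for parental cells, vector and wild-type FLT3 alike, while the growth protocol describes 1 of each. A control pair may therefore show only the spread between cultures of a line. In the fit of all 17 arrays, 8 of the 12 residual degrees of freedom come from the spread among the ITD lines and 4 from control pairs. Its p-values may thus not measure the spread between separately made control lines.

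Chemokines are small secreted proteins that draw leukocytes along a gradient by way of G protein-coupled receptors. CCL3, CCL4 and CCL5 attract monocytes and T cells, CCL6 and CCL9 are rodent chemokines of myeloid cells that act through CCR1, and CXCL2 attracts neutrophils through CXCR2. Tumour necrosis factor (TNF) and interleukin-1 beta (IL-1 beta) are inflammatory cytokines of macrophages and other myeloid cells, and signals that activate NF-kB induce the genes of most of these proteins. In the RefSeq annotation of GRCm38.p6 the 5 Ccl genes lie next to each other on chromosome 11, in the order Ccl5, Ccl9, Ccl6, Ccl3 and Ccl4, with only pseudogenes and long non-coding RNA genes between them. Cxcl2 lies on chromosome 5, Tnf on chromosome 17 and Il1b on chromosome 2.

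The sequences before the start sites are shown for 2 pairs of genes whose values differed between the control lines in contrasting ways, as described further on. Cxcl2 and Tnf were low in parental cells and high with wild-type FLT3, and Ccl6 and Ccl9 were highest with the vector. Each run holds the 250 bases before the annotated start, on the strand of the gene, from RefSeq promoters of GRCm38.p6. Capitals mark the letters TATAAA on either strand and matches to the NF-kB consensus on either strand.
Cxcl2, chr5:90903649-90903898, plus strand: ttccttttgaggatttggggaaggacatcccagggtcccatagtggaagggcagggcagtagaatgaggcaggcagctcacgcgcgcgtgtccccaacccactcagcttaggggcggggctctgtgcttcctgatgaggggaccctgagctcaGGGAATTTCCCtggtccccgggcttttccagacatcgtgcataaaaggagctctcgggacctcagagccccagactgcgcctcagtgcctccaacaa
Tnf, chr17:35202008-35202257, minus strand: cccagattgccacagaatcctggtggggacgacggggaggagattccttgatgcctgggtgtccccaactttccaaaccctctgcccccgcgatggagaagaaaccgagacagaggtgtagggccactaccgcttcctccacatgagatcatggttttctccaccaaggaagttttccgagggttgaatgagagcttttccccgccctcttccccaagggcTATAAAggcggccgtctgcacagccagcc
Ccl6, chr11:83593088-83593337, minus strand: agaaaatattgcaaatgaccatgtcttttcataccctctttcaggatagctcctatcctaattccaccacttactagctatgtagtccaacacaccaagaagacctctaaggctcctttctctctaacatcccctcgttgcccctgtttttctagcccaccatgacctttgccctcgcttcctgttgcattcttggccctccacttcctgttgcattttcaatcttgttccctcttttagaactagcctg
Ccl9, chr11:83578637-83578886, minus strand: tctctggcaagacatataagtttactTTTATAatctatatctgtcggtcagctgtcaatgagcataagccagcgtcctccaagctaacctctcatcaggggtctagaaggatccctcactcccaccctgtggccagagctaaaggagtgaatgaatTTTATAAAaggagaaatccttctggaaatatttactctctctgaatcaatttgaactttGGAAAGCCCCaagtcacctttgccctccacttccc

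The promoter table held 6 of the 8 genes, all but Ccl4 and Ccl5. Motifs were searched on both strands in windows from 250 bases before to 50 bases after the start, and overlapping matches were kept. The NF-kB consensus occurred in the Cxcl2 and Ccl9 windows, 2 of 6, and in 8.5% of the 32851 windows of the table. In Cxcl2 it started at position -97 on the strand of the gene, with an overlapping match on the other strand at -96, and in Ccl9 it lay on the other strand at -35. TATAAA was found in Il1b, Ccl9 and Tnf, against 13.6% of all windows, and started at -31 in Il1b and at -29 in Tnf. The C/EBP-like letters TTNNGNAA were found in 5 of the 6 windows, all but Ccl6, against 40.7% of all. The AP-1-like letters TGANTCA were found in Ccl9 (7.8% of all), the PU.1-like letters GAGGAAG in Cxcl2 and Tnf (13.6%), and the STAT-like letters TTCNNNGAA in none of the 6 (8.3%). Such matches describe letters, not binding. Ccl6 and Ccl9, although neighbours, were 47.2% identical over a global alignment of these 250 bases, within the 41.8% to 49.1% found over all 15 pairs of the 6 genes.

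Over the ITD lines as a group, 7 of the 8 genes fell against the equally weighted mean of 3 control groups, the vector, parental and wild-type cells grown in IL-3. The background was 8.15% of all genes called lower in that contrast and 19.4% called in either direction, at a Benjamini-Hochberg adjusted p under 0.05 in limma, and the median difference of the 8 genes was -1.08 (log2) beside -0.01 over all genes. The members were named with earlier results in view, so this count is a description of these genes and not independent evidence of a direction. The comparison depended on the control line used. Without the vector line 4 of the 8 remained called, beside 2491 of all 20227 genes. With the 12 lines as the units of replication 3 did, Ccl3, Ccl4 and Ccl5, beside 466 of all genes. The main fit called 3917. For none of the 8 did every ITD array lie below every array of those 3 groups, where 1.39% of all genes did so, nor below all 8 other arrays (0.934%).

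**Figure D1:**
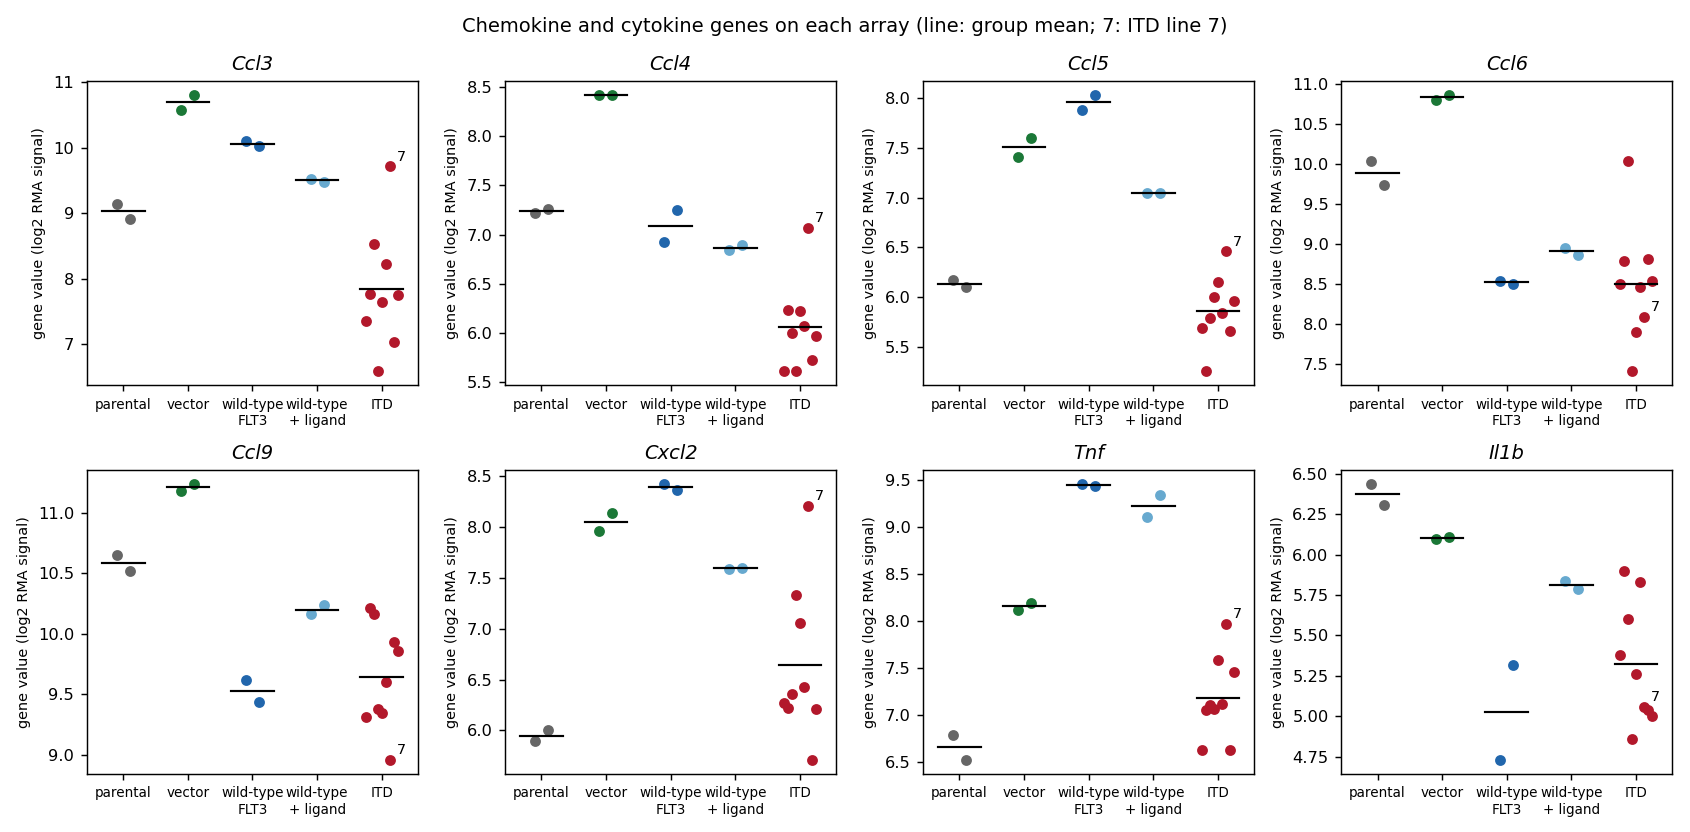
Gene values (log2 RMA signal, vertical axis of each panel) of the 8 genes on every array by group; points are arrays, black lines are group means, and 7 marks ITD line 7. Vector arrays are highest for Ccl3, Ccl4, Ccl6 and Ccl9, wild-type arrays for Ccl5, Cxcl2 and Tnf, and parental arrays for Il1b, while ITD line 7 is the highest ITD array for Ccl3, Ccl4, Ccl5, Cxcl2 and Tnf.

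Ccl3 and Ccl4 encode macrophage inflammatory proteins 1 alpha and 1 beta. Ccl3 measured 9.14 and 8.92 (log2) in parental cells, 10.58 and 10.81 with the vector, 10.10 and 10.03 with wild-type FLT3, and 9.53 and 9.48 with wild-type FLT3 and ligand. On the ITD arrays it ran from 6.59 in line 4 over a median of 7.75 to 9.72 in line 7. Line 7 alone reached above the parental and ligand arrays, and the other 8 lines lay below every control array. Ccl3 fell against the vector (-2.85 ± 0.50, log2 with the SE of the fit over 9 and 2 arrays) and against wild-type FLT3 (-2.21 ± 0.50), with limma's adjusted p of 0.00132 and 0.0124. Its differences from parental cells, -1.18 ± 0.50 (adjusted p 0.129), and from wild-type cells with ligand, -1.66 ± 0.50 (0.0654), were not called.

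Ccl4 measured 7.22 and 7.26 in parental cells, 8.42 and 8.42 with the vector, 6.92 and 7.25 with wild-type FLT3, and 6.84 and 6.89 with ligand, and on the ITD arrays from 5.61 over a median of 6.0 to 7.07. The highest ITD value was again that of line 7, and the other 8 lines, up to 6.23, lay below all control arrays. It was the only one of the 8 genes to fall against each of these 3 groups, with differences of -1.18 ± 0.26 from parental cells, -2.37 ± 0.26 from the vector and -1.03 ± 0.26 from wild-type FLT3 (adjusted p 0.00375, 2.16e-05 and 0.021). Against wild-type FLT3 with ligand the difference was -0.81 ± 0.26 (adjusted p 0.0776). These contrasts share the ITD arrays. All 5 probe sets of each of the 2 genes were lower with ITD than in the controls, with differences from -2.44 to -1.1 (log2) for Ccl3 and from -2.16 to -0.93 for Ccl4.

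Ccl5, which encodes RANTES, a chemokine also made by T and natural killer cells, separated parental cells from the transduced controls. It measured 6.17 and 6.10 in parental cells, 7.41 and 7.60 with the vector, 7.88 and 8.03 with wild-type FLT3, and 7.05 and 7.05 with ligand, and the ITD arrays ran from 5.26 in line 2 over 5.84 to 6.46 in line 7. Every ITD array lay below every vector, wild-type and ligand array, while the parental arrays fell inside the ITD range. Ccl5 fell against the vector (-1.64 ± 0.20), wild-type FLT3 (-2.09 ± 0.20) and wild-type with ligand (-1.18 ± 0.20; adjusted p 5.69e-05, 1.38e-05 and 0.00164). Against parental cells it stood at -0.26 ± 0.20 (adjusted p 0.441), with a 95% interval of -0.68 to 0.16. The 5 probe sets used disagreed in size, from -0.25 to -2.67, and the widest of these differences came from a probe set with an ITD mean of 3.61, below the filter value of 4.599. With the dimmer probe sets also left out, by the stricter filter of 6.341, the ligand contrast was -0.94 and was not called (adjusted p 0.13), nor was it with the median of the probe sets (-0.91, 0.0526).

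Ccl6 and Ccl9 were highest with the vector and about as low with wild-type FLT3 as with ITD. Ccl6 measured 10.03 and 9.74 in parental cells, 10.80 and 10.86 with the vector, 8.54 and 8.50 with wild-type FLT3, and 8.95 and 8.86 with ligand. Its ITD values ran from 7.41 in line 4 over 8.50 to 10.03 in line 3, and line 3 was the only ITD array to reach the parental values. Ccl6 fell against the vector (-2.32 ± 0.40) and against parental cells (-1.38 ± 0.40; adjusted p 0.00114 and 0.0253), and it differed by -0.01 ± 0.40 from wild-type FLT3, with a 95% interval of -0.87 to 0.84. The call against parental cells was lost with the median of the probe sets in place of their mean (-1.15, adjusted p 0.107).

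Ccl9 measured 10.65 and 10.52 in parental cells, 11.18 and 11.24 with the vector, 9.62 and 9.44 with wild-type FLT3, and 10.16 and 10.24 with ligand, with ITD values from 8.96 in line 7 over 9.60 to 10.21 in line 2. All 9 ITD arrays lay below the parental and vector arrays and on both sides of the wild-type arrays. It fell against the vector (-1.57 ± 0.24) and against parental cells (-0.95 ± 0.24; adjusted p 0.000426 and 0.0112), and differed by 0.11 ± 0.24 from wild-type FLT3 (95% interval -0.40 to 0.62) and by -0.56 ± 0.24 from wild-type with ligand (adjusted p 0.208). For both genes the call against the 3 control groups together rested on the vector line: without it the differences were -0.70 (adjusted p 0.165) for Ccl6 and -0.42 (0.163) for Ccl9. Of the 9 Ccl9 probe sets 8 were lower with ITD than in the controls, and the brightest, with a mean of 12.90, differed by only -0.20.

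Cxcl2, the neutrophil attractant MIP-2, was lowest in parental cells. It measured 5.90 and 6.0 there, 7.96 and 8.14 with the vector, 8.43 and 8.37 with wild-type FLT3, and 7.59 and 7.60 with ligand, and ITD values ran from 5.71 in line 8 over 6.36 to 8.21 in line 7. The ITD arrays lay below both wild-type arrays, line 7 lay above both vector arrays, and only line 8 lay below the parental arrays. Cxcl2 fell against wild-type FLT3 (-1.75 ± 0.42) and against the vector (-1.41 ± 0.42; adjusted p 0.0165 and 0.0337), and was at 0.69 ± 0.42 against parental cells (adjusted p 0.317). Its difference from the 3 control groups together, -0.82 ± 0.28, just missed the threshold (adjusted p 0.051). This difference passed it without the parental line (-1.58, 0.00402), under the stricter filter (-0.96, 0.0344) and after quantile normalization again (-0.88, 0.0377). It was not called without the vector line, without the wild-type line or with no filter on dim probe sets. Nor was it called with the median of the probe sets, or with the lines as the units of replication (-0.82 ± 0.51, adjusted p 0.438).

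Tnf, the gene of tumour necrosis factor, was highest with wild-type FLT3, with or without ligand. It measured 6.79 and 6.52 in parental cells, 8.12 and 8.19 with the vector, 9.46 and 9.43 with wild-type FLT3, and 9.10 and 9.34 with ligand, and ITD values ran from 6.63 in line 1 over 7.10 to 7.97 in line 7. Every ITD array lay below the vector, wild-type and ligand arrays, and 7.97 in line 7 was the closest approach. Tnf fell against wild-type FLT3 (-2.27 ± 0.25, 4.83-fold), wild-type with ligand (-2.05 ± 0.25) and the vector (-0.98 ± 0.25; adjusted p 4.95e-05, 0.000125 and 0.0145). Against parental cells it was at 0.52 ± 0.25 (adjusted p 0.185), so the ITD mean lay between parental and vector cells. Without the wild-type line the difference from the remaining controls was -0.23 (adjusted p 0.445).

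Il1b, the gene of IL-1 beta, gave signals near the filter on dim probe sets. It measured 6.44 and 6.31 in parental cells, 6.10 and 6.11 with the vector, 4.73 and 5.32 with wild-type FLT3, and 5.84 and 5.79 with ligand, and ITD values ran from 4.86 in line 4 over 5.26 to 5.90 in line 2. The ITD arrays lay below the parental and vector arrays and around the wild-type arrays. Il1b fell against parental cells (-1.05 ± 0.24) and against the vector (-0.78 ± 0.24; adjusted p 0.00537 and 0.0395), and was at 0.30 ± 0.24 against wild-type FLT3 (adjusted p 0.524). Its 7 used probe sets averaged between 4.99 and 6.27 over the arrays, and 2 of them were higher with ITD. None passed the stricter filter, so Il1b had no value there, and the contrast with the 3 control groups (-0.51 ± 0.16, adjusted p 0.0353) was not called without the parental line (-0.24, 0.421) or without the vector line (-0.38, 0.21).

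**Figure D2:**
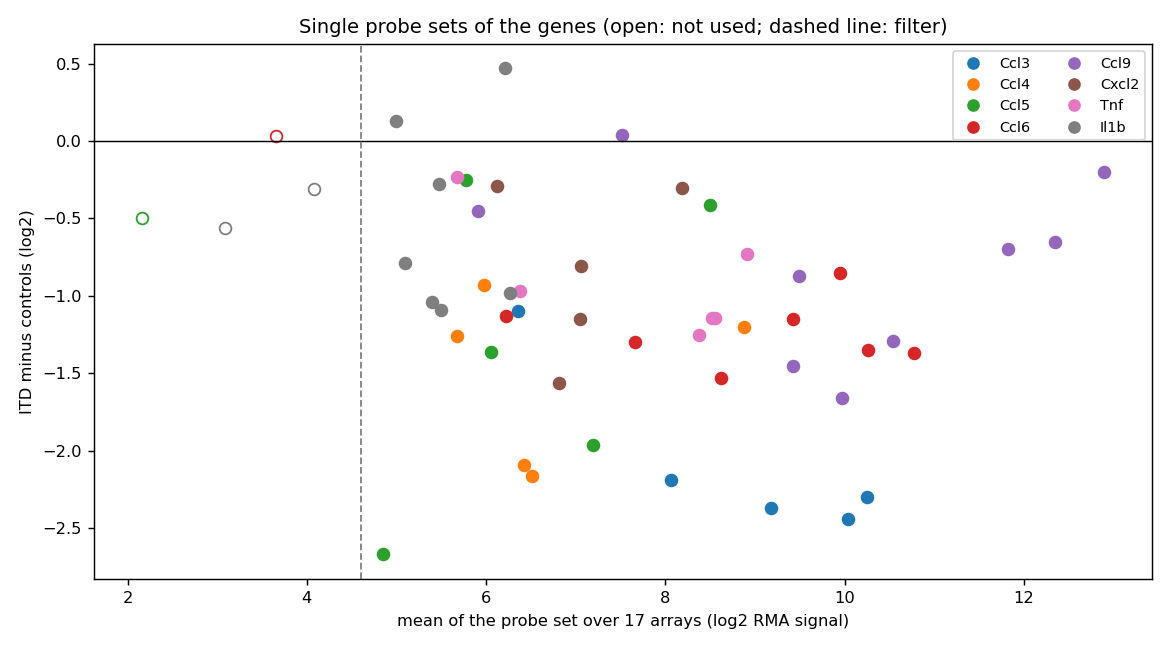
Difference between ITD and the mean of the 3 control groups (log2, vertical axis) against the mean over 17 arrays (log2 RMA signal, horizontal axis) for each probe set of the 8 genes; filled points were used, open points fell below the filter at the dashed line of 4.599. All 5 probe sets of Ccl3 lie between -1.1 and -2.44, whereas those of Il1b are dim and lie on both sides of 0.

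Set out by control group, 8 of the 8 genes fell against the vector, where 5.21% of all genes were called lower and 14% in either direction. Against wild-type FLT3 5 fell (4.44% lower, 7.71% either), against parental cells 4 (6.72%, 17%) and against wild-type FLT3 with ligand 2 (4.08%, 5.8%), and none of the 8 was called higher. The 5 that fell against wild-type FLT3 were Ccl3, Ccl4, Ccl5, Cxcl2 and Tnf, and the 4 against parental cells were Ccl4, Ccl6, Ccl9 and Il1b. The 2 that fell against wild-type with ligand were Ccl5 and Tnf. All 9 ITD arrays lay below both vector arrays for 7 genes, all but Cxcl2 (9.66% of all genes), below both wild-type arrays for Ccl3, Ccl5, Cxcl2 and Tnf (9.33%), below both parental arrays for Ccl4, Ccl9 and Il1b (9.17%) and below both ligand arrays for Ccl5 and Tnf (9.07%). These contrasts share the ITD arrays and are not separate evidence. The counts rested on both arrays of the control pair. With 1 array of that pair left out, the control group held a single array. Fewer of the 8 genes were then called, and fewer of all genes. This was so for each of the 4 control groups. Without ITD line 7, 5 of the 8 were called against wild-type with ligand, beside 1471 of all genes. With all arrays these counts were 2 and 1173.

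**Figure D3:**
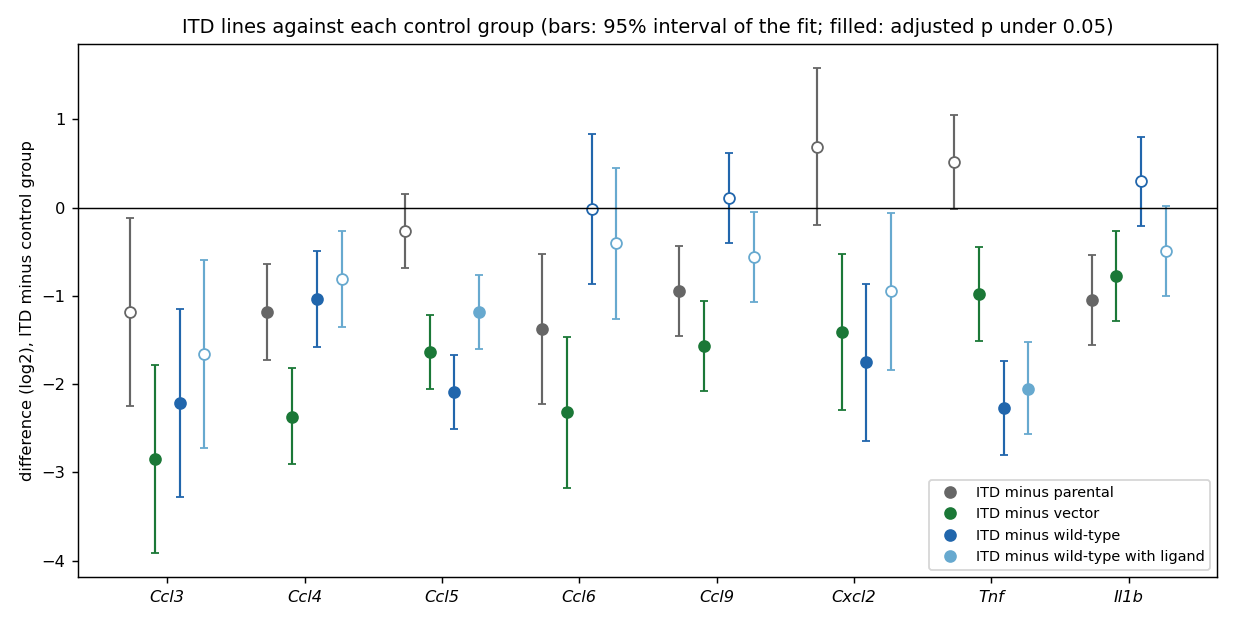
Difference of ITD from each control group (log2, vertical axis) for the 8 genes, with 95% intervals of the fit as bars; filled points had an adjusted p under 0.05. All points against the vector are filled and below 0, while Cxcl2 and Tnf against parental cells lie above 0 at 0.69 and 0.52 with open points.

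The control lines themselves differed in these genes, although none of them carried a mutant receptor. Vector minus parental was 2.10 ± 0.54 (log2) for Cxcl2, 1.67 ± 0.64 for Ccl3, 1.50 ± 0.32 for Tnf, 1.37 ± 0.25 for Ccl5, 1.18 ± 0.33 for Ccl4, 0.94 ± 0.52 for Ccl6, 0.63 ± 0.31 for Ccl9 and -0.27 ± 0.31 for Il1b. In the fit of all 17 arrays Ccl5 and Tnf rose (adjusted p 0.00708 and 0.0181), 2 of 8 genes, where 1.27% of all genes were called higher and 2.23% in either direction. Under the stricter filter Ccl5 was not called (1.37, adjusted p 0.125). Cxcl2 was called higher under that filter (2.44, 0.0344) and after quantile normalization again (2.12, 0.0464). The vector and parental pairs did not overlap for any of the 8 genes, nor for 55% of all genes. Neither the Ccl5 nor the Tnf call held without any 1 of the 4 arrays involved, where a group then held a single array. Fewer of all genes were called there too. Without ITD line 7, 5 of the 8 genes were called beside 764 of all genes, where the fit of all 17 arrays called 451. The ITD lines widen the spread that all groups share in that fit. In a fit of the 8 control arrays alone 7 of the 8 genes, all but Il1b, were called higher with the vector, against 13.7% of all genes called in either direction.

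The line with wild-type FLT3 differed from the vector line in both directions, in 5 of the 8 genes. Tnf rose by 1.29 ± 0.32 (adjusted p 0.0185), while Ccl6 (-2.31 ± 0.52), Ccl9 (-1.68 ± 0.31), Ccl4 (-1.33 ± 0.33) and Il1b (-1.07 ± 0.31) fell (adjusted p 0.0105, 0.00303, 0.0183 and 0.039). The Il1b call was lost with the median of the probe sets (-1.07, adjusted p 0.0821), and Il1b had no value under the stricter filter. Of all genes 5.5% were called higher, 2.71% lower and 8.22% in either direction, and the pairs of arrays did not overlap for any of the 8 genes, nor for 58% of all genes. Ccl5 at 0.45 ± 0.25, Cxcl2 at 0.35 ± 0.54 and Ccl3 at -0.63 ± 0.64 were not called. Leaving out any 1 of the 4 vector and wild-type arrays left a single array in its group. Fewer of the 8 genes were then called, and fewer of all genes. In the fit of the 8 control arrays all 8 were called, against 23% of all genes. In a contrast added after the data were seen, wild-type FLT3 exceeded parental cells by 2.79 ± 0.32 for Tnf, 2.44 ± 0.54 for Cxcl2 and 1.82 ± 0.25 for Ccl5, and was lower for Il1b (-1.35 ± 0.31) and Ccl9 (-1.06 ± 0.31), 5 of 8 genes beside 14.6% of all genes called.

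With ligand on wild-type FLT3 no gene was called in the 17-array fit, 0 of 8 and 0% of all genes. At an unadjusted p under 0.05 limma gave 3 of the 8 genes and 1555 of all genes. The measured differences were -0.90 ± 0.25 for Ccl5, -0.80 ± 0.54 for Cxcl2, -0.56 ± 0.64 for Ccl3, -0.23 ± 0.32 for Tnf and -0.22 ± 0.33 for Ccl4, and 0.39 ± 0.52 for Ccl6, 0.67 ± 0.31 for Ccl9 and 0.79 ± 0.31 for Il1b. The 2 arrays with ligand did not overlap the 2 without it for any of the 8 genes, as was so for 47.8% of all genes. In the fit of the 8 control arrays, with 4 residual degrees of freedom, limma called Ccl5, Cxcl2 and Ccl3 lower and Ccl9 and Ccl6 higher (adjusted p 0.00262, 0.00283, 0.0117, 0.00257 and 0.0459), where 5.68% of all genes were called in either direction. With the replicate number as a block in that fit Ccl6 was not called.

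The order of the group means differed from gene to gene, and neighbours in it were compared in the fit of 17 arrays. Which groups were neighbours was read from these same data. The contrasts of the ligand group with parental cells and with the vector were added after the data were seen. They called 15.4% and 10.6% of all genes in either direction. For Ccl3 it was vector 10.70, wild-type 10.06, wild-type with ligand 9.51, parental 9.03 and ITD 7.85, and no neighbouring pair in it passed the test. For Ccl4 it was vector 8.42, parental 7.24, wild-type 7.09, ligand 6.87 and ITD 6.05, and no neighbouring pair passed (vector over parental had an adjusted p of 0.0728). For Ccl5 it was wild-type 7.95, vector 7.51, ligand 7.05, parental 6.13 and ITD 5.87, and only ligand over parental passed (adjusted p 0.0201). For Tnf it was wild-type 9.45, ligand 9.22, vector 8.15, ITD 7.17 and parental 6.65, where ligand over vector (0.0422) and vector over ITD passed. For Cxcl2 it was wild-type 8.40, vector 8.05, ligand 7.60, ITD 6.64 and parental 5.95, for Ccl6 vector 10.83, parental 9.88, ligand 8.91, wild-type 8.52 and ITD 8.50, for Ccl9 vector 11.21, parental 10.59, ligand 10.20, ITD 9.64 and wild-type 9.53, and for Il1b parental 6.38, vector 6.10, ligand 5.81, ITD 5.32 and wild-type 5.03. No neighbouring pair of those 4 orders passed in that fit. In the fit of the 8 control arrays some did, among them Ccl3 wild-type against vector (adjusted p 0.00138) and ligand (0.0117), vector against parental for Ccl6 (0.000295) and Ccl9 (0.000996), and Cxcl2 wild-type against vector (0.0264).

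The ITD lines also differed from one another. The SD over the 9 ITD arrays was 0.91 (log2) for Ccl3, 0.76 for Cxcl2 and 0.73 for Ccl6, against pooled SDs of 0.115, 0.075 and 0.110 within the 4 control pairs. These 3 genes varied among the ITD lines (one-sided F ratios of 63.6, 103 and 43.9 on 8 and 4 degrees of freedom; adjusted p 0.0416, 0.0356 and 0.0496 over all genes), 3 of 8 beside 2.55% of all genes. Ccl9 (F 24.7, adjusted p 0.0714), Ccl4 (14.6, 0.103), Ccl5 (14.4, 0.104), Tnf (11.1, 0.128) and Il1b (3.12, 0.349) were not called. The F test had few degrees of freedom: without any 1 of the 8 control arrays none of the 8 was called, nor without ITD line 7, and 1 was called without line 4. Each line had 1 array, so differences between single lines carry no test.

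Among the lines, line 7 was the highest in Ccl3, Ccl4, Ccl5, Cxcl2 and Tnf and the lowest in Ccl9. Its values exceeded the ITD mean by 1.87 (log2) for Ccl3, 1.57 for Cxcl2, 1.01 for Ccl4, 0.79 for Tnf and 0.59 for Ccl5, and lay at -0.68 for Ccl9, -0.41 for Ccl6 and -0.27 for Il1b. Line 7 was the highest ITD array for 17.9% of all genes and the lowest for 16.8%, the largest shares of the 9 lines. On the other lines these shares ran from 5.3% to 15.7% for the highest and from 6.0% to 14.3% for the lowest. Line 4 had the lowest Ccl3, Ccl6 and Il1b, at -1.26, -1.09 and -0.47 from the ITD mean, with a Cxcl2 of 0.69 above it. Line 3 had the highest Ccl6, at 1.53 above the mean, with Ccl3 and Ccl9 at 0.69 and 0.52 above it. Line 8 had the lowest Cxcl2 (-0.93) and a low Ccl3 (-0.81).

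**Figure D4:**
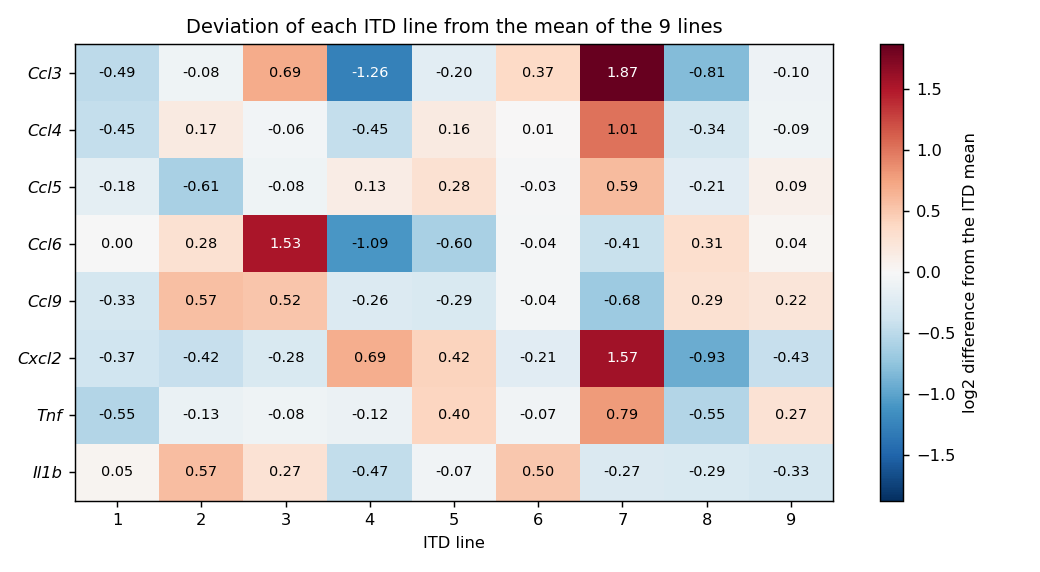
Deviation of each of the 9 ITD lines (horizontal axis) from the mean of the 9 for the 8 genes (vertical axis), as log2 differences printed in each cell and coloured red above and blue below the mean. Line 7 is high in Ccl3 (1.87) and Cxcl2 (1.57) and low in Ccl9 (-0.68), and line 3 is high in Ccl6 (1.53).

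The 28 pairs of genes were also correlated over the 9 ITD arrays, with exact permutation tests adjusted over the pairs. No pair passed by Pearson or by Spearman correlation, so the following values are descriptions. The 2 smallest Pearson p were those of Ccl3 with Ccl4 (r = 0.88, exact permutation p = 0.00389, adjusted 0.0554; rho = 0.75, exact p = 0.0255, adjusted 0.119) and of Ccl4 with Tnf (r = 0.84, exact p = 0.00396, adjusted 0.0554; rho = 0.67, exact p = 0.0589, adjusted 0.206). Without the 2 lines farthest from the median, lines 4 and 7 for the first and 1 and 7 for the second, these r were 0.52 and 0.55. Ccl5 with Tnf (r = 0.76, exact p = 0.0178, adjusted 0.0713; rho = 0.83, exact p = 0.00827, adjusted 0.119) and Ccl5 with Cxcl2 (r = 0.80, exact p = 0.00877, adjusted 0.0695; rho = 0.78, exact p = 0.0172, adjusted 0.119) had r of 0.89 and 0.79 without lines 2 and 7. The neighbours Ccl6 and Ccl9 had r = 0.72 (exact p = 0.0217, adjusted 0.0758, and rho = 0.75, exact p = 0.0255, adjusted 0.119), and 0.80 without lines 3 and 4. The neighbours Ccl5 and Ccl9 had r = -0.77 (exact p = 0.0117, adjusted 0.0695, and rho = -0.70, exact p = 0.0433, adjusted 0.173), and -0.39 without lines 2 and 7. The neighbours Ccl3 and Ccl6 had r = 0.28 (exact p = 0.445, adjusted 0.542). Ccl9 and Cxcl2 ran opposite ways, with r = -0.77 (exact p = 0.0124, adjusted 0.0695; rho = -0.65, exact p = 0.0666, adjusted 0.207) and -0.61 without lines 2 and 7.

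The genes most like each member over all 17 arrays were taken from 670 genes with an SD of at least 0.5 and 3 or more probe sets. The 17 arrays fall into groups, so these values describe mostly the group pattern. For Ccl3 they were Csf1 (Pearson r = 0.926), Plin3 (0.925) and Id2 (0.920), and for Ccl4 Plin3 (0.938), Rab7b (0.934) and Pgd (0.927). For Ccl5 they were Evi2a (0.956), Nlrp3 (0.952) and Abhd2 (0.944), for Cxcl2 Rhoc (0.964), Cd74 (0.947) and Hmox1 (0.940), and for Tnf Csta2 (0.952), Dgat2 (0.941) and Gramd2 (0.940). Ccl6 and Ccl9 were each other's nearest gene (0.914), and Tnfrsf14 was near to both (0.880 and 0.899), with Dhrs3 (0.882) for Ccl6 and Prss57 (0.888) for Ccl9. For Il1b they were Gpr160 (0.862), Stkld1 (0.862) and Prss57 (0.852).

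Of the receptors of these proteins, 3 of 10 measured fell with ITD against the 3 control groups and none rose, beside 8.15% lower and 19.4% in either direction over all genes. Tnfrsf1b, which encodes TNF receptor 2, fell by 1.18 ± 0.12 (adjusted p 6.59e-06) and also against each of the 4 control groups taken singly. Ccr1, the receptor of CCL3, CCL5, CCL6 and CCL9, fell by 1.54 ± 0.29 (0.00128). Its means were 9.49 with wild-type FLT3 and 8.81 with ligand but 6.71 with the vector, 5.22 in parental and 5.60 in ITD cells, and without the wild-type line the difference was -0.37 (adjusted p 0.48). Tnfrsf1a, the gene of TNF receptor 1, fell by 0.29 ± 0.09 (0.0281). It was not called without the vector line (-0.16, adjusted p 0.333) or without the parental line (-0.26, 0.101). Cxcr2, the receptor of CXCL2, fell against parental cells (-1.49 ± 0.39, adjusted p 0.0135) and was at -0.30 ± 0.26 against the 3 groups (0.468). Il1rap, a subunit of the IL-1 receptor, fell against wild-type FLT3 (-0.50 ± 0.13, 0.0269) and against wild-type with ligand (-0.55 ± 0.13, 0.019). Of the 33 called genes in all 9 lists described here and next, 7 were also called with the 12 lines as units. They were Tnfrsf1b, Il4, Lta, Ltb, Tlr9, Cd14 and Irak2. Over all genes 3917 were called, and 466 with the 12 lines as units.

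Few other chemokine genes passed the test. Of 12 other CC chemokines measured, including Ccl2 and Ccl7, limma called 0 in the ITD contrast with the 3 control groups (also 0 at an unadjusted p under 0.05; median -0.05, against -0.01 over all genes). Among them Ccl11, Ccl12, Ccl22 and Ccl28 had no probe set past the stricter filter of 6.341. A fall in such dim genes would be hard to see. Of 16 other CXC, XC and CX3C chemokines 1 fell, Cxcl13 by 0.68 ± 0.21 on 1 probe set, and it was at -0.01 with no filter on dim probe sets (adjusted p 0.982). Cxcl1 and Cxcl3, near relatives of Cxcl2 that also attract neutrophils, were at -0.27 ± 0.12 and -0.28 ± 0.11 (adjusted p 0.145 and 0.0921). Cxcl1 was called lower with the median of its probe sets (-0.61, adjusted p 0.0463) and under the stricter filter (-0.36, 0.0395), and Cxcl3 was at 0.05 with no filter (0.903). Cxcl3 rests on 2 probe sets, and probe sets of such related genes may share signal. Of 15 other cytokines 5 fell, beside 8.15% of all genes, and Osm, the oncostatin M gene, rose by 0.59 ± 0.13 (19.4% of all genes were called in either direction). Ltb, which encodes lymphotoxin beta of the TNF family, fell by 1.81 ± 0.12, Csf1, the gene of macrophage colony-stimulating factor, by 1.33 ± 0.31, and Il4 by 0.88 ± 0.14, with Lta at -0.66 ± 0.11 and Il10 at -0.48 ± 0.14 also lower. Il10 was at -0.11 with no filter on dim probe sets (adjusted p 0.46) and at -0.33 without the wild-type line (0.175). Lta was at -0.47 under the stricter filter (0.09).

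Genes that act upstream or downstream of TNF and IL-1 beta changed in part, and the counts stand beside 8.15% lower and 19.4% in either direction over all genes, with an all-gene median of -0.01. Of 8 genes of their maturation 3 fell. They were the inflammasome sensor gene Nlrp3 by 0.91 ± 0.13, Adam17, whose protease releases TNF from the membrane, by 0.47 ± 0.15, and the pore-forming Gsdmd by 0.43 ± 0.08. Adam17 was not called without the vector line (-0.23, adjusted p 0.432) or without the parental line (-0.37, 0.148). Nor was it called with no filter on dim probe sets (-0.4, 0.0818) or with the median of its probe sets (-0.4, 0.0928). Casp1 was at -0.17 ± 0.09. Of 16 genes of NF-kB subunits, inhibitors and feedback 6 fell and 1 rose, with a median of -0.23. Nfkbia, which encodes the inhibitor I kappa B alpha and is itself induced by NF-kB, fell by 1.08 ± 0.20, Tnfaip3, the feedback inhibitor A20, by 0.46 ± 0.10 and the subunit gene Rel by 0.40 ± 0.12, while the kinase gene Chuk rose by 0.48 ± 0.09. Without the vector line Nfkbia was at -0.71 (adjusted p 0.0531) and Rel at -0.28 (0.22). Without the parental line Tnfaip3 was at -0.18 (0.339) and Rel at -0.35 (0.111). Rel was also not called with no filter on dim probe sets (-0.35, adjusted p 0.0584). Rela and Nfkb1, which encode the main NF-kB dimer, were at -0.03 ± 0.10 and 0.16 ± 0.07 and were not called. Nfkb1 was higher than in parental cells (0.41 ± 0.10, adjusted p 0.0124) and without the wild-type line (0.32, 0.00747), but at -0.22 with the median of its probe sets (0.11).

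Of 13 NF-kB responsive genes 4 fell and 1 rose, with a median of -0.03, beside 8.15% lower and 19.4% in either direction over all genes. Slc2a6 fell by 0.77 ± 0.11, Ier3 by 0.50 ± 0.14 and Birc3 by 0.41 ± 0.08, of which Ier3 was not called without the wild-type line (-0.21, adjusted p 0.394). Ptgs2, the inducible prostaglandin synthase, rose by 1.60 ± 0.29, but with the dimmer probe sets left out it stood at -0.02 (adjusted p 0.951). Of 16 Toll-like receptor pathway genes 7 fell and none rose (median -0.25, against -0.01, 8.15% lower and 19.4% in either direction over all genes): Cd14, a co-receptor for bacterial lipopolysaccharide, by 1.30 ± 0.13, Tlr13 by 1.1 ± 0.31 on 1 probe set, Ly96, which partners TLR4, by 0.79 ± 0.20, and the kinase gene Irak2 by 0.70 ± 0.09. Tlr13 was not called without the vector line (-0.66, adjusted p 0.255), and Cd14 averaged 4.79 with ITD, near background. Of 8 mRNA decay factors of cytokine transcripts 1 fell, Zc3h12a, an endonuclease gene that also restrains inflammation, by 0.20 ± 0.07. It was at -0.06 without the vector line (adjusted p 0.7) and at -0.18 with no filter on dim probe sets (0.072).

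The arrays carried the markers of immature myeloid cells that the label gives, with Prtn3, Ctsg and Ms4a3 at group means between 11.39 and 13.07, although Kit and Cd34 lay between 5.44 and 5.75, near background. Markers of other blood cells moved with the groups, and their counts stand beside 8.15% lower and 19.4% in either direction over all genes in the same contrast. Of 12 monocyte and macrophage markers 5 fell with ITD, and their mean over the list was 6.07 to 6.49 on the ITD arrays against 6.64 to 6.96 on the parental, vector and wild-type arrays, while C1qa, C1qb, Mrc1, Marco and Siglec1 averaged at most 6.55 in any group. Of 9 neutrophil markers 6 fell and 1 rose (list mean 7.33 to 8.57 with ITD and 8.69 to 9.35 in those controls), and of 8 myeloblast markers 4 fell (9.46 to 9.84 and 9.82 to 10.25). The eosinophil list differed between the control lines themselves, with means of 11.69 to 11.82 in parental cells, 8.96 to 8.97 with the vector, 5.86 to 6.12 with wild-type FLT3 and 7.85 to 10.97 with ITD, and the mast cell and basophil list ran from 10.08 to 10.21, 8.37 to 8.41, 6.98 to 7.11 and 7.73 to 8.81 in the same groups. Of the mast cell and basophil markers 2 of 7 fell and 1 rose, of the eosinophil markers 1 of 3 rose, of the T and natural killer cell markers 1 of 9 fell, of the dendritic cell markers 1 of 6 fell and Flt3 rose, of the megakaryocyte markers 1 of 5 rose, and of the 4 B cell markers none was called. Flt3 is also the gene of the transgene, and it was higher with wild-type FLT3 than with the vector too (1.57 ± 0.11). The part of these markers in the chemokine values was not tested, and in bulk RNA fewer cells of a type and less RNA per cell cannot be told apart. On ITD line 7 the monocyte and macrophage list stood at 6.49, below every control array. It was the highest of the 9 ITD arrays by little, with line 2 at 6.47 and line 5 at 6.44. The myeloblast list of line 7 was the lowest of the 9 (9.46), and its neutrophil list stood at 7.78.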

How the data were processed

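Total RNA of 17 cultures was hybridised to exon arrays, 1 array each. The authors deposited 1 log2 signal for each probe set and array, made by RMA (background subtraction, normalization between arrays, 1 summary per probe set). The submitters' processing notes name Affymetrix Expression Console 1.1; build and probe set filter are not given in the sources used here. Array medians lay between 4.63 and 4.69, and precision is limited by the number of arrays.

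Probe sets with 1 symbol in the platform annotation were kept (symbols updated through RefSeq synonyms: 18006 of 22296 current, 4227 changed, 63 unmatched) when their mean over 17 arrays exceeded 4.599, the median over all rows. The value of a gene is the mean of these probe sets. Group means were fitted with limma 3.58.1 in R 4.3.3 (lmFit, eBayes with trend) over 20227 genes, 5 groups and 12 residual degrees of freedom, two-sided, with Benjamini-Hochberg adjustment over all of them and calls under 0.05. Where an array was left out, the lone array of a pair is assumed to vary like the other groups. Named genes were the 8 members, up to 4 called genes of each pathway list by size, the receptors, and the 3 genes most correlated with each member. The members and lists were chosen with earlier results of these data known. Of 120 pathway genes 114 had a value.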

Additional observations from a re-analysis of the deposited data

Results flagged for a closer look

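Within the 9 ITD arrays, the Ccl4 value of line 7, at 7.07 (log2), lay apart from the others: its gap to the next line was 0.576 of the whole range, above Dixon's critical value for 9 samples. Chance alone flags about 1 group in 20, and 8 genes were examined. Line 7 was also the highest ITD array for Ccl3, Ccl5, Cxcl2 and Tnf, where the gap was 0.376, 0.255, 0.351 and 0.294 of the range, below that value.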

How the results depend on the processing

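No member reversed a call under any alternative run. With 1 array left out, 1114 of 1224 member results kept their side of the threshold, 98 lost it and 12 gained it, and under the other alternatives 372 of 423 kept it, 18 lost it and 33 gained it. The number of the 8 genes called was, with 1 array left out, 6 to 8 for ITD minus controls, 0 to 5 for ITD minus parental, 5 to 8 for ITD minus vector, 2 to 5 for ITD minus wild-type, 1 to 5 for ITD minus wild-type with ligand, 0 for ligand minus wild-type, 1 to 5 for wild-type minus vector, 0 to 5 for vector minus parental and 0 to 3 for variation among ITD lines. Over all genes, leaving out 1 control array also lowered the count in each group contrast that called any. With the median of the probe sets the number of the 8 was 1 for ITD minus wild-type with ligand and 0 for the variation among ITD lines. For ITD minus controls it was 4 without the vector line and 3 with the 12 lines as units. In the control arrays only it was 5 for ligand minus wild-type, 8 for wild-type minus vector and 7 for vector minus parental, and with the replicate block 4, 8 and 7. The replicate numbers did not pair the samples: deviations of same-numbered arrays correlated between -0.118 and 0.092 across genes. By Pearson correlation 1 pair of members passed under the stricter filter. Of all genes, ITD minus controls called 3917, but 2491 without the vector line and 466 with 12 lines as units, and the variation among ITD lines called 516, but 317 with no filter, 1213 with the stricter filter, 50 with the median and 861 after quantile normalization again. The control arrays alone called 1148, 4652 and 2773 genes in the last 3 contrasts (864, 4382 and 2418 with the block), against 0, 1662 and 451. After quantile normalization again, higher calls as a share of all calls went from 57.9% to 46.9% for ITD minus controls, from 62.9% to 50.3% against the vector and from 67% to 56.5% for wild-type minus vector. The causes of these changes were not tested.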
